A study of Mus musculus with 41 samples.

Results

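The genes described here are 6 members of the endogenous opioid system: the peptide precursor genes Pdyn (prodynorphin) and Pnoc (pronociceptin), and the receptor genes Oprk1 (kappa), Oprm1 (mu), Oprd1 (delta) and Oprl1 (nociceptin receptor). They were picked by symbol, 6 of the 32531 named genes in the count tables, and all 6 were found. RNA bound to tagged ribosomes was sequenced from the dorsal striatum of adult mice of the Drd1-EGFP/Rpl10a line CP73, in which a Drd1-driven transgene puts an EGFP tag on ribosomal protein L10a. Every library, the saline controls included, came from this line, whose labelled strain is FVB/N-Swiss Webster crossed to C57BL/6 for 9 generations or more. The mice had intravenous access to saline or to cocaine in a long-access self-administration study, and the cocaine animals are labelled nonescalating or escalating.

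There were 5 saline, 9 nonescalating and 5 escalating purified libraries taken 24 h after self-administration. The groups at 1 month held 5 saline, 11 nonescalating and 4 escalating purified libraries, and 2 saline input libraries of unpurified RNA carry no time label. Replicate numbers restart within the nonescalating groups, and the restarted libraries are called the second run here (3 at 24 h and 5 at 1 month). The second run and the escalating group at 1 month lack the word extended, which the other purified libraries carry in their labels. Whether the sessions differed is not stated. The libraries of 24 h and 1 month carry separate ranges of library numbers, so time and library series cannot be told apart. The library numbers of the inputs lie outside both ranges. The labels do not say that each library is 1 animal, so p-values measure only the spread between these libraries.

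Prodynorphin is cut into dynorphins, which act mainly at the kappa receptor. In the striatum it is a product of the D1 medium spiny neurons, the cells of the direct pathway, and kappa receptors on dopamine terminals lower dopamine release. The mu receptor is known for its dense patches in the striosomes, the delta receptor is strongly expressed in cholinergic interneurons, and the nociceptin receptor responds to nociceptin and hardly to the other opioid peptides. All 4 receptors couple to inhibitory G proteins.

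The precursors carry their peptides as short cores between pairs of basic residues, and the sequences show how the pronociceptin core differs from the prodynorphin cores. The coding sequence of Pdyn holds 3 cores in 248 codons and that of Pnoc holds 1 in 187. Each line below gives 27 bases of the GENCODE M21 transcript on GRCm38, 5′ to 3′ on the minus strand. The capitals mark the 12 bases that code for the core, tyrosine-glycine-glycine-phenylalanine in Pdyn and phenylalanine-glycine-glycine-phenylalanine in Pnoc, and the 6 bases before them code for the basic pair.
Pdyn core 1, chr2:129688232-129688258: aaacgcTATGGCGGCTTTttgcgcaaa
Pdyn core 2, chr2:129688124-129688150: aaacgcTATGGGGGCTTCctgcggcgc
Pdyn core 3, chr2:129688067-129688093: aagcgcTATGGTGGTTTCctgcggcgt
Pnoc core, chr14:65404872-65404898: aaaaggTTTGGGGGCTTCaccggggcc

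By position (GRCm38, GENCODE M21, all protein coding), Pdyn lies on chromosome 2 from 129686565 to 129699844 and Oprl1 on the same chromosome from 181715016 to 181720985. Pnoc lies on chromosome 14 from 65400673 to 65425472, Oprk1 on chromosome 1 from 5588466 to 5606131, Oprm1 on chromosome 10 from 6758506 to 7038198 and Oprd1 on chromosome 4 from 132110726 to 132144486. Oprm1 was the only member whose exons shared bases with another annotated gene, 96 of its 8037 exonic bases with Ipcef1 on the opposite strand. Ipcef1 had a mean of 14.6 CPM in purified and 31.7 CPM in input RNA, and without a stated strand setting reads from the 96 shared bases cannot be told apart.

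Per library, 5394332 to 23925655 counts fell on named genes. A single library, saline replicate 5 at 24 h, differed from the other purified libraries. It had the smallest total, and 11856 detected genes against 13360 to 18057 in the other purified libraries. Of its reads 37.1% lay outside genes, against at most 26.8% in those libraries and 25.5% and 36.7% in the inputs. Some markers of other cells were high in replicate 5. Above every other purified library lay 5 of 8 astrocyte, 3 of 8 oligodendrocyte, 2 of 8 cortical neuron and 2 of 14 interneuron markers. In the same lists 2 interneuron, 1 cortical and 1 oligodendrocyte marker lay below every other purified library. At 0 were 7 interneuron and 2 astrocyte markers. The 9 D1 neuron, 8 D2 neuron and 10 striosome markers each had 1 above and 2 below every other purified library. Of 8 matrix markers, 0 were above and 3 below. The D1 marker above was Drd1, at 773 CPM. The share of all genes at such extremes was not counted. Tests of the members in which this library's group is compared by edgeR are therefore given with and without it. Comparisons of cocaine groups with each other, which it enters only through the shared fit, are given with it only. So are the coefficients of variation, some ratio tests and the correlations of members other than Pdyn with Oprd1.

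Pdyn was the most abundant of the 6 transcripts in every group. Levels are in CPM, counts per 1e6 counts on named genes, and are set side by side between genes only after division by the length of the gene's merged exons in kilobases. Over the 39 purified libraries the level per kilobase was 73.8 ± 16.9 (SD) for Pdyn and 5.26 ± 1.20 for Oprk1. It was 3.65 ± 1.54 for Oprm1, 2.68 ± 1.07 for Oprl1, 1.40 ± 1.69 for Oprd1 and 0.110 ± 0.263 for Pnoc. From Oprk1 to Oprd1, neighbours in this order differed by no more than the sum of their SDs.

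The order of the receptors was different in whole striatal RNA. In the 2 inputs Oprd1 had 9.07 ± 0.03 CPM per kilobase, against 4.58 ± 1.56 for Oprk1, 2.64 ± 0.33 for Oprl1 and 2.60 ± 0.05 for Oprm1. Of the summed level per kilobase of the 4 receptors, Oprd1 made up 48.2% ± 4.77 (n = 2) in the inputs and 10.4% ± 9.17 (n = 39) in purified RNA. Oprk1 made up 24.0% ± 5.98 of the inputs and 41.0% ± 9.16 of purified RNA. By merged exons, the kappa receptor was thus the first of the 4 after purification and the delta receptor the first before it. The length of the longest coding transcript was also used in place of merged exons, a choice made after the data were seen. By it, Oprm1 came before Oprk1 in purified RNA (12.1 against 10.3 CPM per kilobase). In the inputs Oprd1 was then only just the first, at 9.07 against 8.97 for Oprk1 and 8.63 for Oprm1. The shares above hold for merged exons only.

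**Figure D1:**
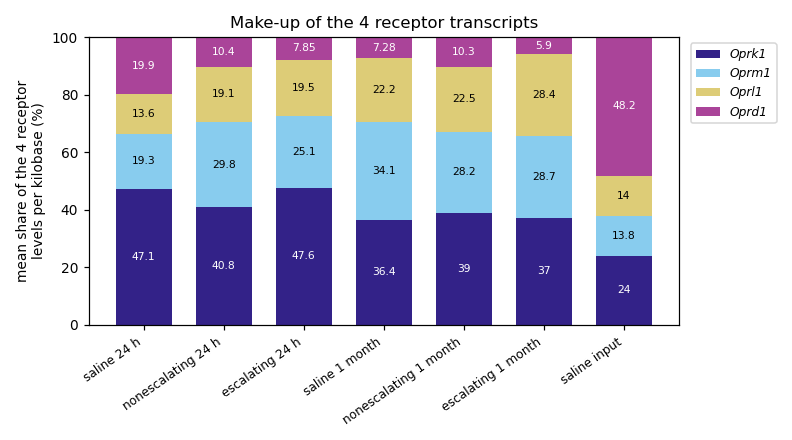
Mean share (%, vertical axis) of each receptor gene in the summed level per kilobase of the 4 receptors, by group along the horizontal axis (5, 9, 5, 5, 11, 4 and 2 libraries from left to right). Oprd1 is 48.2% of the inputs and 5.90% to 19.9% of the purified groups, the highest of these being saline at 24 h, which holds replicate 5.

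The saline purified libraries were set against the inputs to see which of the 6 transcripts were higher after the D1 purification. In this comparison, purification and library series cannot be told apart. Pdyn was 148, 213, 146, 61.9 and 215 CPM in saline replicates 1, 2, 3, 5 and 6 at 24 h, and 260, 230, 175, 161 and 317 CPM in replicates 1 to 5 at 1 month. It was 70.3 and 74.9 CPM in the inputs. Of the 10 saline purified libraries, 9 were above both inputs, and replicate 5 at 24 h was below both. The log2 fold change of Pdyn was 1.55 ± 0.38 (± is the standard error in every fold change; 95% interval 0.75 to 2.36), which passed the test (adjusted p = 0.0307, edgeR quasi-likelihood test with Benjamini-Hochberg adjustment over 15305 genes). Pdyn was the 1 member called of 6 tested, in a comparison that called 4.65% of all genes, and 1.84% as higher. The call was lost without saline replicate 1 at 1 month (adjusted p = 0.0548, edgeR). It was also lost with the replicate number as a block (0.0731), where 1.02% of all genes were called. With the saline libraries at 24 h alone it was lost too (log2 fold change 1.31, adjusted p = 0.256), where 0.0823% of all genes were called. Without either input the call was lost as well, and the spread of the lone input is then assumed to be that of the other groups. With any 1 library left out, the log2 fold change was 1.48 to 1.65.

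Oprd1 was the member furthest in the other direction. It was 9.32, 1.34, 5.16, 43.9 and 3.10 CPM in saline replicates 1, 2, 3, 5 and 6 at 24 h and 6.37, 3.28, 3.09, 5.59 and 1.34 CPM in replicates 1 to 5 at 1 month. The inputs had 36.4 and 36.5 CPM. Every saline purified library but replicate 5 at 24 h lay below both inputs, and over all 39 purified libraries 38 did. The log2 fold change was -2.17 ± 0.82 (95% interval -3.93 to -0.42), which did not pass (adjusted p = 0.161, edgeR). Without replicate 5 it was -2.90 ± 0.52 with an adjusted p of 0.00162, and Pdyn was 1.65 ± 0.25 with 0.000492, so that 2 of 6 members were called where 15% of all genes were. In bulk RNA, fewer cells of a type and less RNA per cell cannot be told apart.

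Markers of several other cell types were low in the purified RNA along with Oprd1. Of 14 interneuron markers 5 were called lower and 0 higher, where 2.81% of all genes were called lower, with a median log2 fold change of -3.19 against -0.01 over all genes tested. Oligodendrocyte markers (6 of 8 called lower, median -3.94), D2 neuron markers (6 of 8, -2.33) and astrocyte markers (3 of 8, -2.84) were low in the same comparison. With which of these cells the low Oprd1 goes was not tested. Cortical neuron markers were not low in this comparison: 0 of 8 were called, with 4 positive, 4 negative and a median of 0.16. The summed level of the interneuron markers without Gad2, a marker that D1 neurons share, was 310 to 339 CPM in the inputs and 26.3 to 180 CPM in the purified libraries (left out after the values were seen). In replicate 5, Chat, which makes acetylcholine, was at 21.1 CPM and Elavl2 at 46.0 CPM, close to the inputs (19.5 to 19.7 and 34.8 to 48.4 CPM). Other cholinergic markers, Slc5a7 and Slc18a3, were listed at 0 there, as were Lhx6, Npy, Pvalb, Tac2 and Pthlh, 7 of the 14. The part of other cells in the Oprd1 level of that library was not tested.

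The other receptors did not pass in purified against input RNA with the saline libraries of both times. Oprk1 ranged from 25.4 to 72.6 CPM in the saline purified libraries and was 52.1 and 31.8 CPM in the inputs, so that both groups overlapped, with a log2 fold change of 0.47 ± 0.35 (95% interval -0.27 to 1.22, adjusted p = 0.548, edgeR). Oprm1 was 9.52 to 66.8 CPM against 20.6 and 21.2 CPM (0.63 ± 0.46, interval -0.35 to 1.61). Its 5 libraries at 1 month were all above the inputs, and 2 of the 5 at 24 h were below them. With the libraries at 1 month alone Oprm1 was called (1.13 ± 0.33, adjusted p = 0.0338, edgeR), where 19.4% of all genes were. With those at 24 h alone it was 0.15 ± 0.60 (adjusted p = 0.971, edgeR), where 0.0823% of all genes were called. Oprl1 was 1.62 to 16.3 CPM against 10.8 and 9.04 CPM (0.05 ± 0.61, interval -1.25 to 1.36), and which way this value points depended on the scaling: it was -0.019 with DESeq2's size factors. Without replicate 5 at 24 h the values were 0.46 ± 0.31 for Oprk1, 0.69 ± 0.39 for Oprm1 and 0.088 ± 0.53 for Oprl1.

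Pnoc was close to the limit of these libraries. It had 0 counts in 26 of the 39 purified libraries, 1 to 3 counts in 5 and more than 3 in 8, and a count of 0 allows up to 0.125 to 0.556 CPM depending on the library. The highest was saline replicate 2 at 1 month with 44 counts (3.0 CPM), and the inputs had 4 and 9 counts (0.345 and 1.11 CPM). Summed over libraries, Pnoc was 0.264 CPM in purified RNA (exact 95% Poisson interval 0.220 to 0.315) and 0.661 CPM in the inputs (0.352 to 1.13), intervals that cover counting error only. Its log2 fold change was -1.36 ± 1.74 and not called (adjusted p = 0.773, edgeR; -1.26 ± 1.77 without saline replicate 5 at 24 h), and Pnoc was removed by the filter on low counts in every other comparison.

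**Figure D2:**
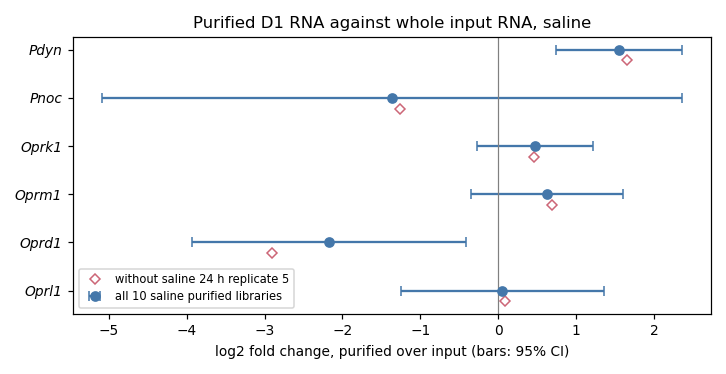
Log2 fold change of each gene in saline purified against saline input RNA (horizontal axis; circles with 95% intervals, 10 purified and 2 input libraries), and the same without saline replicate 5 at 24 h (diamonds). Pdyn lies at 1.55 and Oprd1 at -2.17, moving to -2.90 without that library, while the intervals of the other 4 genes cross 0.

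The markers of the purified cells moved with Pdyn in this comparison. Drd1 had a log2 fold change of 0.84 ± 0.22 (adjusted p = 0.0444) and Tac1, the substance P precursor of D1 neurons, one of 1.96 ± 0.43 (adjusted p = 0.0184). The call of Drd1 held under 6 of 19 alternatives, with values of 0.62 to 1.11. Penk, the enkephalin precursor of D2 neurons, was 983 ± 43.6 CPM (n = 2) before purification, 165 ± 20.4 (n = 5) in purified RNA at 24 h and 154 ± 43.1 (n = 5) at 1 month, and fell by 2.45 ± 0.19 on the log2 scale (adjusted p = 1.95e-05). Per kilobase, Penk was 602 and Pdyn 25.2 CPM in the inputs, and 94.2 and 73.8 CPM in purified RNA. Pomc, the precursor of beta-endorphin, had 0 counts in 4 and 1 to 3 counts in 9 of the 39 purified libraries, and no difference was detectable at this depth (log2 fold change 0.18 ± 1.36).

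The first comparison between treatments asked whether the opioid genes of D1 neurons differed 24 h after cocaine self-administration. Pdyn was 151 to 287 CPM in the 9 nonescalating libraries (median 202) and 171, 203, 252, 207 and 178 CPM in escalating replicates 1 to 5. The saline libraries given above reach from 61.9 to 215 CPM, so all 3 groups overlap, and replicate 5 is the only saline library below 146 CPM. Group means were 157 ± 62.7 (n = 5) for saline, 209 ± 44.2 (n = 9) for nonescalating and 202 ± 31.8 (n = 5) for escalating. The log2 fold change of all cocaine (the average of both cocaine groups) against saline was 0.31 ± 0.19 (95% interval -0.09 to 0.72, adjusted p = 0.494, edgeR). Without replicate 5, whose Pdyn level was the lowest of the 39, the saline mean was 181 ± 38.5 CPM (n = 4) and the log2 fold change 0.12 ± 0.15. None of the 5 members tested was called, and of 13437 genes 0.0447% were. An unadjusted p under 0.05 (edgeR) was seen for 1 member, Oprd1, and for 1842 of all genes (13.7%).

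Oprd1 had the widest gap to saline at 24 h, and it rested on 1 library. It was 2.12 to 11.4 CPM in the nonescalating libraries (median 4.85) and 3.41, 1.74, 1.65, 1.56 and 8.16 CPM in escalating replicates 1 to 5. Apart from replicate 5 at 43.9 CPM, the saline libraries (1.34 to 9.32 CPM) overlap with the cocaine libraries (1.56 to 11.4 CPM), and only replicate 2 at 1.34 CPM lies outside their span. All cocaine against saline gave a log2 fold change of -1.66 ± 0.59 (unadjusted p = 0.00999, adjusted p = 0.215, edgeR) with replicate 5 and -0.16 ± 0.54 (adjusted p = 0.947) without it. By group, escalating against saline was -2.03 ± 0.78 and became -0.53 ± 0.64, and nonescalating against saline was -1.29 ± 0.64 and turned to 0.21 ± 0.58.

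The other receptors overlapped between groups at 24 h. Oprm1 was 9.52 to 29.0 CPM in saline, 12.7 to 52.0 in nonescalating (median 34.7) and 14.4 to 40.0 CPM in escalating libraries. Of the 9 nonescalating libraries 5 lay above every saline library, which gave a log2 fold change of 0.60 ± 0.34 (95% interval -0.10 to 1.30, adjusted p = 0.487, edgeR). Escalating against saline was 0.15 ± 0.38. Oprk1 was 55.5 ± 8.42 CPM in saline, 50.1 ± 9.39 in nonescalating and 50.1 ± 14.4 in escalating libraries, and its all-cocaine log2 fold change of -0.24 ± 0.18 had an interval of -0.62 to 0.14. Oprl1 was 6.86 ± 4.04, 9.86 ± 4.55 and 8.41 ± 1.98 CPM in the same order (0.32 ± 0.46, interval -0.64 to 1.28). Without saline replicate 5, Oprm1 was 0.49 ± 0.34 in nonescalating and 0.041 ± 0.37 in escalating libraries, and the all-cocaine values were -0.20 ± 0.19 for Oprk1 and 0.26 ± 0.47 for Oprl1.

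**Figure D3:**
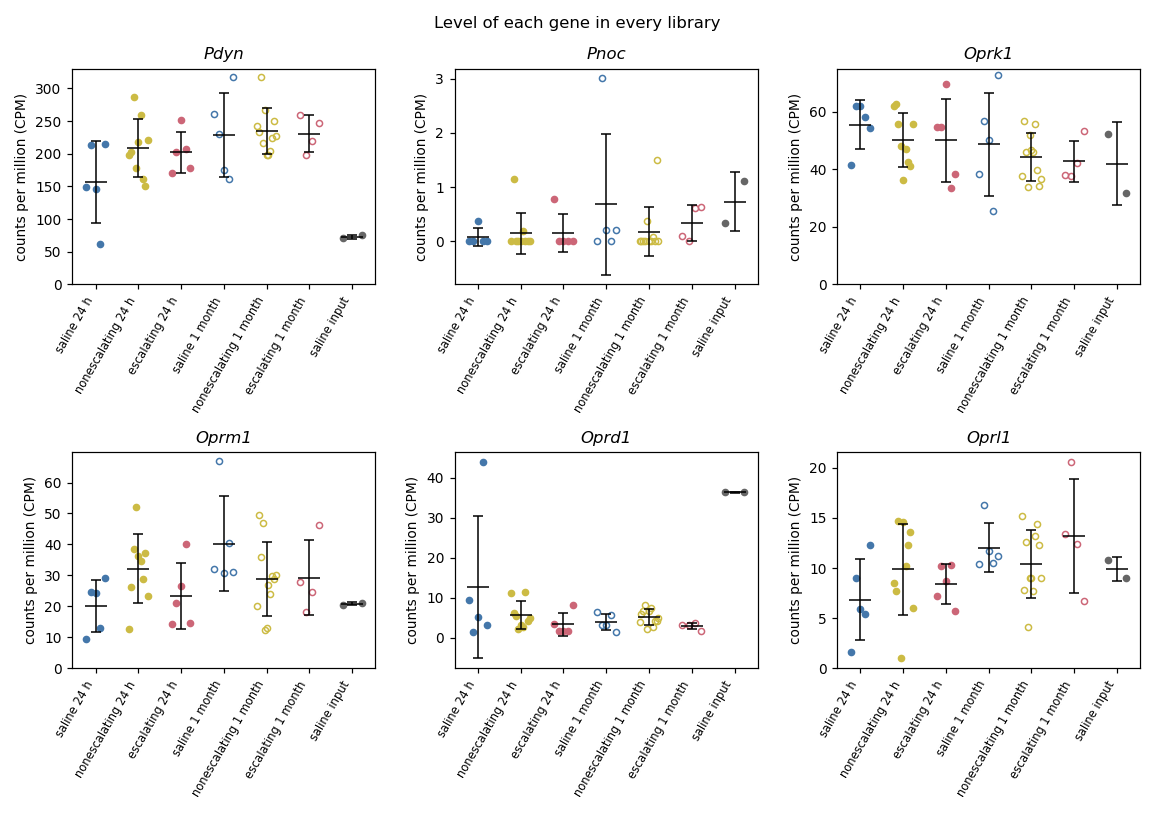
Level (CPM, vertical axes starting at or below 0) of each of the 6 genes in every library, by group, filled for 24 h and input and open for 1 month; bars are the mean ± SD. Pdyn lies above both inputs in 38 of 39 purified libraries and Oprd1 below both in 38 of 39, and the exception in each panel is the same saline library at 24 h.

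At 1 month the Pdyn means of the 3 groups lay close together. Its mean was 229 ± 64.0 CPM (n = 5) in saline, 234 ± 35.2 (n = 11) in nonescalating and 231 ± 27.9 (n = 4) in escalating libraries. The lowest, median and highest nonescalating libraries had 197, 227 and 317 CPM, and escalating replicates 1 to 4 had 259, 197, 219 and 247 CPM. All cocaine against saline gave a log2 fold change of 0.01 ± 0.13, with a 95% interval of -0.26 to 0.27 (adjusted p at least 0.999, edgeR). Counts of genes called were 0% of 14488 in each comparison at 1 month, with 317 genes at an unadjusted p under 0.05 for all cocaine, none of them a member.

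Oprm1 was the receptor with the lowest cocaine values relative to saline at 1 month. It was 32.1, 66.8, 30.9, 40.4 and 31.0 CPM in saline replicates 1 to 5, 12.5 to 49.5 CPM in nonescalating (median 28.7) and 28.0, 18.3, 24.5 and 46.4 CPM in escalating libraries. Every saline library was above the medians of both cocaine groups, but 3 of the 11 nonescalating and 1 of the 4 escalating libraries lay above the lowest saline library. The log2 fold change of all cocaine was -0.48 ± 0.29 (95% interval -1.08 to 0.12, unadjusted p = 0.112, adjusted p at least 0.999, edgeR). It was -0.21 ± 0.31 without saline replicate 2, the library at 66.8 CPM, and -0.65 ± 0.29 without escalating replicate 4 at 46.4 CPM. The striosome markers, which mark the patches where Oprm1 is known to be dense, summed to 455 to 681 CPM in saline, 386 to 658 in nonescalating and 543 to 653 CPM in escalating libraries, ranges that overlap. Of these 10 markers 0 were called for all cocaine at 1 month and 9 had negative log2 fold changes, with a median of -0.15 against -0.01 over all genes, and their part in the Oprm1 values was not tested.

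For the remaining receptors at 1 month, the all-cocaine log2 fold change was -0.17 ± 0.18 for Oprk1, -0.06 ± 0.37 for Oprd1 and -0.08 ± 0.26 for Oprl1. Oprd1 was 3.93 ± 2.03 CPM in saline, 5.17 ± 1.98 in nonescalating and 2.93 ± 0.821 in escalating libraries. Escalating replicates 1 to 4 had 3.22, 3.19, 3.59 and 1.73 CPM, inside the nonescalating range of 2.19 to 8.20 CPM except for the lowest. Oprk1 was 48.6 ± 17.9, 44.1 ± 8.33 and 42.7 ± 7.25 CPM, and Oprl1 12.03 ± 2.46, 10.4 ± 3.38 and 13.2 ± 5.69 CPM, in the order saline, nonescalating and escalating.

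**Figure D4:**
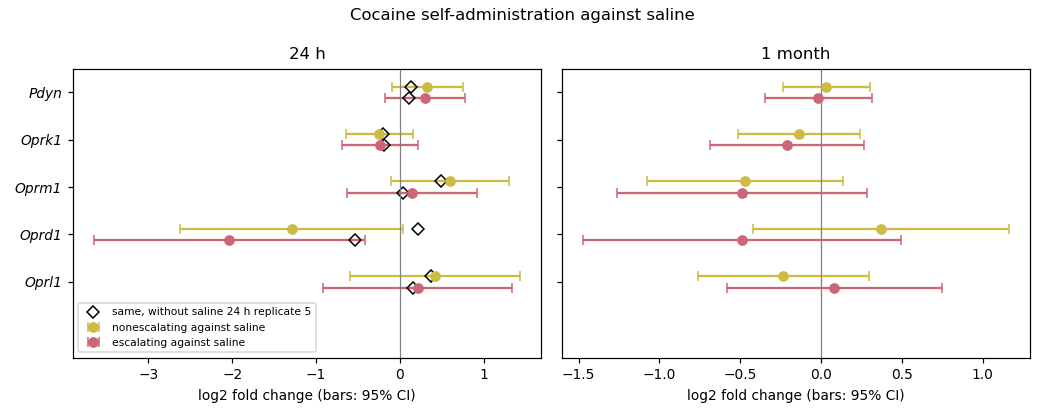
Log2 fold change (horizontal axes, which differ in scale between the panels) of nonescalating and escalating against saline libraries at 24 h and at 1 month, with 95% intervals; diamonds leave out saline replicate 5 at 24 h. For Oprd1 at 24 h the values of -1.29 and -2.03 move to 0.21 and -0.53, and those of Pdyn from 0.33 and 0.30 to 0.14 and 0.11.

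Escalating and nonescalating libraries were compared directly at each time. None of the 5 members was called, and neither was any other gene (0% of 13437 genes at 24 h and 0% of 14488 at 1 month, with 537 and 177 at an unadjusted p under 0.05). For Pdyn the log2 difference was -0.03 ± 0.20 at 24 h (95% interval -0.44 to 0.39) and -0.05 ± 0.14 at 1 month (-0.34 to 0.24). Oprd1 was lower in escalating libraries at both times without passing, by -0.75 ± 0.68 at 24 h (unadjusted p = 0.288) and -0.86 ± 0.43 at 1 month (unadjusted p = 0.0587, adjusted p at least 0.999, edgeR). Oprk1, Oprm1 and Oprl1 lay between -0.45 and 0.32.

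Between the saline groups themselves, 1 month against 24 h, Oprm1 and Pdyn were higher and Oprd1 lower at 1 month without passing. In every comparison between the times, time and library series cannot be told apart. Oprm1 was 40.3 ± 15.4 CPM at 1 month and 20.1 ± 8.36 at 24 h (n = 5 each), and each of the 5 libraries at 1 month was above each at 24 h. Its log2 fold change was 0.93 ± 0.38 (95% interval 0.17 to 1.69, unadjusted p = 0.0181, adjusted p = 0.203, edgeR), and 0.81 ± 0.39 without replicate 5. Pdyn had 0.47 ± 0.20 (adjusted p = 0.226), and 0.27 ± 0.17 without that library. Oprd1 had -1.74 ± 0.64 (adjusted p = 0.151), and -0.29 ± 0.56 without it. Oprl1 had 0.73 ± 0.44 and Oprk1 -0.28 ± 0.22, and without it 0.66 ± 0.46 and -0.25 ± 0.22. Of 15190 genes 0.843% were called, and 0 of the 5 members. An unadjusted p under 0.05 (edgeR) was seen for 2486 genes (16.4%), with Oprm1, Pdyn and Oprd1 among them. How many other genes separated the saline groups fully, as Oprm1 did, was not counted. In the cocaine groups the same 5 log2 differences lay between -0.26 and 0.60, and 0% of genes were called.

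Whether the cocaine effect changed between the times was tested as a difference of differences, which called 0 of 5 members and 0.0132% of 15190 genes. It was 1.57 ± 0.74 for Oprd1 (unadjusted p = 0.0398, adjusted p = 0.435, edgeR) and 0.12 ± 0.65 without replicate 5. With all libraries, 10.8% of all genes had an unadjusted p under 0.05. For Oprm1 it was -0.85 ± 0.45 (adjusted p = 0.491) and -0.73 ± 0.46 without that library. Pdyn had -0.30 ± 0.24, Oprl1 -0.39 ± 0.52 and Oprk1 0.06 ± 0.26, and without it -0.10 ± 0.20, -0.32 ± 0.53 and 0.033 ± 0.26.

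The members differed in how much they varied between libraries of a group. The biological coefficient of variation that edgeR estimated over the 6 purified groups was 22.7% for Pdyn and 24.4% for Oprk1, and 12.6% and 16.2% of the 15190 genes were below them. It was 41.0% for Oprm1, 46.8% for Oprl1 and 66.0% for Oprd1. Genes of the same abundance had 24.1%, 31.3%, 36.9%, 54.5% and 66.8% on the fitted trend for Pdyn, Oprk1, Oprm1, Oprl1 and Oprd1, so only Oprm1 varied more than the trend. Within saline at 1 month, Oprm1 in replicate 2 was 66.8 CPM while the other 4 libraries had 30.9 to 40.4 CPM.

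Pdyn was also set against the D1 markers Drd1 and Tac1 within each library. The log2 ratio of Pdyn to Drd1 at 24 h was -2.04 ± 0.915 (n = 5) in saline and -1.61 ± 0.285 (n = 14) in cocaine libraries (two-sided exact permutation test, p = 0.121, 0.556 adjusted over the 10 tests of this kind). Saline replicate 5 was at -3.64 and the other 4 saline libraries at -1.95 to -1.46, and without replicate 5 the saline mean was -1.64 ± 0.215 (n = 4; exact permutation p = 0.862). At 1 month it was -1.50 ± 0.435 (n = 5) and -1.33 ± 0.271 (n = 15; exact p = 0.294). The ratio of Pdyn to Tac1 was -0.75 ± 1.07 and -0.35 ± 0.535 at 24 h, and the saline mean -0.55 ± 1.12 without replicate 5. None of the 10 ratio tests, over saline against cocaine, escalating against nonescalating and saline between times, passed (lowest unadjusted p = 0.121, adjusted 0.556 to 0.801).

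Pdyn and Oprd1 moved in opposite directions from library to library. With each group centred on its mean, Pearson's r between their log2(CPM + 1) values was -0.65 over 39 libraries (permutation within groups, p = 0.00234, 0.0351 adjusted over the 15 pairs of members) and Spearman's rho -0.50 (p = 0.00397, adjusted 0.0595). It was -0.75 over the 19 libraries at 24 h and -0.34 over the 20 at 1 month, and -0.44 without the 2 libraries farthest from the median of Pdyn. Without saline replicate 5 at 24 h alone, r was -0.41 with an adjusted p of 0.325, so the pass rested on that library. None of the other 14 pairs passed, the next being Oprm1 with Oprd1 (r = -0.35, rho = -0.36, adjusted p = 0.352 and 0.199).

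**Figure D5:**
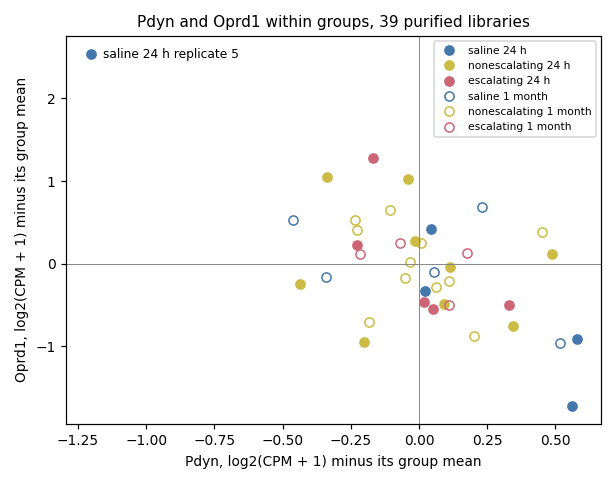
Pdyn (horizontal axis) against Oprd1 (vertical axis) in the 39 purified libraries, each as log2(CPM + 1) minus the mean of its group. Saline replicate 5 at 24 h lies alone at the upper left; r is -0.65 with it and -0.41 without it.

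The genes whose group-centred pattern was most like each member were sought among 9431 genes with a mean of at least 5 CPM, as a description over 39 libraries that share depth and composition. For Pdyn they were Tmx2 (r = 0.79), Dhx38 (0.79) and Pcsk2 (0.77), the last a convertase that cuts peptide precursors such as prodynorphin. Without saline replicate 5 at 24 h these were 0.60, 0.58 and 0.60. For Oprm1 they were Arhgdia (0.74), Rab11fip5 (0.73) and the histamine H3 receptor gene Hrh3 (0.67), which were 0.76, 0.72 and 0.66 without that library. Those of Oprk1 were Tnks2, Add3 and Faxc (0.61, 0.60 and 0.59), and those of Oprl1 were Fndc1, Trpm3 and Abca8b (0.68, 0.68 and 0.65). Those of Oprd1, Eml5, Kcnk2 and Adcy1, fell from 0.73, 0.67 and 0.67 to 0.52, 0.38 and 0.39 without replicate 5.

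The rest of the pathway was described with 50 further genes: other precursors, peptide processing enzymes, G proteins, receptor kinases, arrestins and regulators, effectors, and regulators of prodynorphin transcription. In purified against input RNA, 4 of the 50 were called higher and 2 lower, where 1.84% and 2.81% of all genes were. All 4 that rose belonged to the 9 G protein genes: Gng3 (log2 fold change 1.84 ± 0.35, adjusted p = 0.00945), Gng7 (0.94 ± 0.19, 0.0138), Gnaz (1.41 ± 0.35, 0.0336) and Gnai1 (0.86 ± 0.22, 0.0375). The calls of Gnai1 and Gnaz held under 10 and 11 of 19 alternatives, and those of Gng7 and Gng3 under 15 and 16. Gnai1 and Gnaz encode inhibitory alpha subunits, and Gng7 is the gamma subunit of the stimulatory striatal G protein. The list's median was 0.78, against -0.01 over all genes tested.

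The genes of the pathway that fell were Penk and Rgs9, which encodes a regulator that shortens G protein signals in striatal neurons. Rgs9 had 1708 ± 211 CPM before purification and, in purified RNA, 526 ± 91.0 at 24 h and 525 ± 55.1 at 1 month, a log2 fold change of -1.51 ± 0.17 (adjusted p = 0.000268, edgeR). None of the 7 processing, 10 effector or 11 transcription genes passed, with list medians of 0.23, -0.24 and 0.00. Without saline replicate 5 at 24 h, 15% of all genes were called in this comparison. Then 1 processing gene and 2 transcription genes were called higher, and 1 effector gene each way. The G protein list then held 5 genes called higher, and the kinases, arrestins and regulators 2 called lower. In none of the other 12 comparisons was a gene of the 50 called with all libraries (lowest adjusted p = 0.0992, edgeR, in saline over time). Without saline replicate 5, 1 processing gene and 1 G protein gene were called lower in saline over time, where 0.64% of all genes were called. At 24 h the 9 G protein genes had a median log2 fold change of -0.22 for all cocaine against saline, 8 of them negative, against -0.02 over all genes. The 11 kinases, arrestins and regulators had a median of 0.18. Without saline replicate 5 these medians were -0.09 (7 of 9 negative) and 0.15, and at 1 month -0.04 and 0.07.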

How the data were processed

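The authors deposited 1 table of raw counts by gene symbol for each of 41 libraries. Reads were aligned to mm10 with STAR 2.0.0e and counted with HTSeq, per the submitters' processing notes. Which annotation and strand setting HTSeq had is not given in the sources used here. Its 5 summary lines were dropped, as was an entry called unknown that had no counts. Reads outside genes are those of the no-feature line, as a share of the counts on named genes plus all 5 summary lines. They made up 14.3% to 37.1% of each library.

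TMM scaling was done in edgeR 4.0.16 under R 4.3.3, low genes were removed with filterByExpr, and groups were compared by quasi-likelihood F tests with Benjamini-Hochberg adjustment over all genes tested, called at an adjusted p under 0.05. The fits covered the 3 groups of a time for treatments, the 6 purified groups for times and their interaction, and the 3 saline groups for purified against input RNA. CPM are plain counts per 1e6, unscaled by TMM, as mean ± SD. Ratios used log2 of raw counts without a pseudocount and two-sided exact permutations. Correlations used log2 values with a pseudocount of 1 CPM and two-sided 100000-draw permutations (Python with scipy 1.17.1). The fits were tested on simulated counts. DESeq2 1.42.0, size factors, other filters, a replicate block, each run and each library left out were alternatives. No 2 libraries of a group were duplicates (128 pairs, chi-square over degrees of freedom at least 8.89). Positions and coding sequences are those of GENCODE M21 on GRCm38.

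The 6 genes and all gene lists were chosen with earlier results of these data known. Other genes named are those of the lists that passed (up to 4 per list by lowest p), Penk, Pomc, Drd1 and Tac1, and the 3 genes most like each member; marker genes of replicate 5 and Ipcef1 were named after their values were seen.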

Additional observations from a re-analysis of the deposited data

Results flagged for a closer look

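Among 30 sets of 4 to 10 libraries (5 purified groups for each of the 6 genes), 8 held 1 library far from the rest of its group; chance alone gives about 1 in 20. Pnoc, at 0 counts in most libraries, gave 4 of these: saline replicate 3 (0.382 CPM), nonescalating replicate 2 (1.15 CPM) and escalating replicate 1 (0.779 CPM) at 24 h, and saline replicate 2 at 1 month (3.0 CPM). The same saline library at 1 month lay apart for Oprm1 (66.8 CPM) and Oprl1 (16.3 CPM). Oprd1 was far above its group in saline replicate 5 (43.9 CPM) and in escalating replicate 5 (8.16 CPM) at 24 h. None of the 5 differences in cocaine effect between the times passed its test.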

How the results depend on the processing

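Members called stayed at 0 in the 12 comparisons other than purified against input RNA, under every alternative run for them. In purified against input RNA, members called went from 1 to 0 with the replicate block (Pdyn 1.70, adjusted p = 0.0731, edgeR). They also went to 0 with the saline libraries at 24 h alone. With those at 1 month alone they went to 3 (Pdyn, Oprd1 and Oprm1). In that order, these fits called 1.02%, 0.0823% and 19.4% of all genes, against 4.65% as reported. Leaving out 1 library gave 0 to 2 members. Same-numbered libraries were no more alike than others. Group-centred values of 46 same-numbered pairs had a median correlation of -0.02 (-0.58 to 0.34), against 0.01 for 208 other pairs. Such whole profiles also carry depth and composition, so they cannot settle whether the libraries were paired. The replicate block moved genes called from 712 to 156 in purified against input RNA, from 6 to 0 for all cocaine at 24 h and from 128 to 53 in saline over time, and was a description only.

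Counts over all genes ranged from 12 to 2951 for purified against input RNA (712 as reported). At 24 h they ranged from 0 to 508 for all cocaine (6), 0 to 47 for escalating (0), 0 to 276 for nonescalating against saline (0) and 0 to 2 for escalating against nonescalating (0). They ranged from 7 to 633 for saline over time (128) and 0 to 45 for the difference of differences (2).

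Some members near 0 changed sign, and the cause was not tested. In purified against input RNA, Oprl1 was -0.019 with size factors, -0.018 with DESeq2, -0.036 with a filter at a mean of 5 CPM, -0.29 with the replicate block and -0.32 with saline at 24 h alone, and -0.10 to 0.22 with 1 library left out; Pnoc was 0.12 with saline at 1 month alone. Against saline at 1 month, the replicate block gave -0.018 for Oprl1 and 0.041 for Pdyn in escalating libraries. The second run alone gave Pdyn -0.052 for nonescalating and -0.029 for all cocaine, and the first run gave Oprd1 0.020 for all cocaine. With 1 library left out at 24 h, escalating against saline spanned -0.15 to 0.31 for Oprm1 and -0.043 to 0.52 for Oprl1, and nonescalating against saline -1.57 to 0.21 for Oprd1. At 1 month, escalating spanned -0.19 to 0.29 for Oprl1 and -0.11 to 0.11 for Pdyn, and nonescalating -0.058 to 0.17 for Pdyn and -0.29 to 0.034 for Oprk1. All cocaine spanned -0.083 to 0.14 for Pdyn, -0.27 to 0.18 for Oprd1 and -0.20 to 0.071 for Oprl1, and the difference of differences -0.080 to 0.22 for Oprk1. Escalating minus nonescalating, the Pdyn to Drd1 log2 ratio at 24 h was 0.050 with the second run and -0.13 to 0.028 with 1 library left out, and the Pdyn to Tac1 ratio at 1 month -0.26 to 0.028. Oprk1 minus Oprm1 per kilobase was -1.82 with the longest transcript (added after the data were seen). Pairs of members with an adjusted p under 0.05 went from 1 to 0 without saline replicate 5 at 24 h. In purified against input RNA, Pdyn kept its call under 14 of 19 alternatives, Drd1 under 6, Tac1 under 16, Rgs9 under 18 and Penk under 19. Depth limits Pnoc, which had under 4 counts in most purified libraries.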
